A study of Mus musculus with 2 samples.

Results

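Complement components and receptors were followed in mouse macrophages before and after interleukin-4 (IL-4), the cytokine that drives alternative (M2) polarization. The set held 9 genes, namely C1qa, C1qb, C1qc, C3, C4b, Cfb, Cfp, C3ar1 and C5ar1, out of 15623 genes listed in the deposited tables, and was chosen by name for membership of the complement system. All 9 were listed in both libraries. The mice were wild-type C57BL/6 littermate controls, young adults by the methods of the study, and their peritoneal macrophages gave 1 RNA-seq library of nontreated cells (NT) and 1 of cells given IL-4 for 6 h. In both groups the macrophages had been drawn into the peritoneal cavity by 4% thioglycolate, selected by adherence for 4 h and starved in medium with 0.5% serum. The number of mice behind each library is not given in the sources used here. The labels name peritoneal macrophages as the source and bone marrow as the tissue, and the former was used.

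Complement is a cascade of plasma and locally made proteins that tags and lyses microbes and debris. C1q, a hexamer built from A, B and C chains, recognizes antibody and dying cells and starts the classical pathway, in which C4 is cleaved. All pathways meet at C3, and the alternative pathway amplifies its cleavage through factor B and properdin. The small fragments C3a and C5a then act on receptors of myeloid cells. Macrophages are a main source of C1q and properdin, whereas most circulating C3 and C4 comes from the liver.

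Each group held 1 library, so no difference was checked against the spread between replicates, and the comparison is of 2 libraries rather than of conditions. The libraries held 11035641 (NT) and 11250099 (IL-4) expected counts, the reads that RSEM assigns to a gene. The M2 gene Arg1 rose from 30 to 7711 counts and Mrc1 from 679 to 6962, in the direction of the IL-4 label. All 6 macrophage markers had reads in both libraries, led by Lyz2 (11289 FPKM in NT and 10811 FPKM in IL-4). Of these 6, Csf1r was called higher, from 145 to 270.4 FPKM (log2 ratio 0.90), and Adgre1 stood at 0.42. Cd68 stood at 0.10, Mertk at 0.04, Lyz2 at -0.06 and Fcgr1 at -0.39, none of them called. The 6 markers thus did not share a sign, and their part in the results of Cfp and Itgax was not tested. The other lists summed to less than the macrophage list. Highest of them was the list of 6 fibroblast markers, with 45.9 FPKM in NT and 38.9 FPKM in IL-4. Its marker Dcn, at 14.4 FPKM in NT and 13.6 FPKM in IL-4, was above Cfb and C4b in both libraries. In the list of 6 neutrophil markers, S100a9, Ly6g, Retnlg, Camp and Ngp were at 0 in both. In bulk RNA, fewer cells of a type and less RNA per cell cannot be told apart.

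Of the 9 genes, 1 rose and 1 fell. Properdin (Cfp) rose by 0.94 and the C5a receptor (C5ar1) fell by 1.40 on the log2 scale of IL-4 over NT, while the other 7 genes stayed within 0.75 in either direction. To be called, a gene needed a log2 ratio of 0.75 or more in either direction and a 95% interval of counting error that left out 0. By this rule 4.07% of the 15593 genes with reads were called higher and 6.28% lower. With 1 of 9 in each direction, the shares of the set are those of single genes and say nothing of complement as a group. Over the 9 genes the log2 ratio had a median of 0.22, against -0.03 over all genes with reads, and 6 of the 9 ratios were above 0. The 9 genes together had 15285 counts in NT and 18187 in IL-4, a log2 ratio of 0.22 for their sum.

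Transcript length moved with the ratio in these libraries, with medians above 0 around the short C1q transcripts and below 0 around the long ones of C3 and C4b. A length median, taken over the 200 genes closest in length, is therefore given beside each of the 9 genes. Ratios of other genes are given without it unless stated. With that median subtracted, 4.07% of genes were called higher and 4.87% lower, and Cfp and C5ar1 were still the 2 called genes of the 9. The median of the 9 genes was then 0.062, with 5 ratios above 0 and 4 below.

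**Figure D1:**
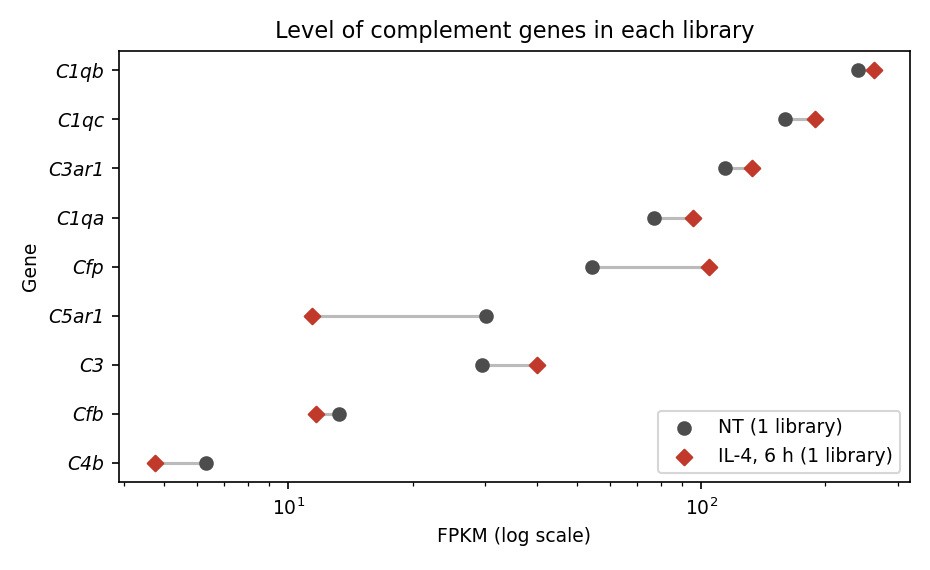
FPKM of the 9 complement genes (log axis) in the NT library (grey circles) and the IL-4 library (red diamonds), ordered by level in NT, with 1 library per group and a line joining the values of a gene. C1qb is highest in both (240 and 262 FPKM), C4b lowest (6.33 and 4.75 FPKM), and the widest gaps are those of Cfp and C5ar1.

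Levels among genes were compared in FPKM, which the authors scaled for transcript length. In NT cells the order from the top was C1qb, C1qc, C3ar1, C1qa, Cfp, C5ar1, C3, Cfb and C4b. The highest and the lowest were 37.9-fold apart in NT and 55.1-fold apart in IL-4. In IL-4 cells Cfp passed C1qa, and C5ar1 dropped below C3 and Cfb to the second lowest place. The neighbours C5ar1 (30.1 FPKM) and C3 (29.5 FPKM) were close in NT, and Cfb (11.7 FPKM) and C5ar1 (11.4 FPKM) were close in IL-4, and their order has no replicate check.

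The chains of C1q are encoded by adjacent genes on chromosome 4 (GRCm38), with C1qb at 136880126 to 136886200, C1qc at 136889801 to 136892936 and C1qa at 136895916 to 136898844. C1qb, the B chain, had 2767 counts (240 FPKM) in NT and 3079 counts (262 FPKM) in IL-4. C1qc, the C chain, had 1839 counts (159 FPKM) in NT and 2225 counts (189 FPKM) in IL-4. C1qa, the A chain, had 901 counts (76.7 FPKM) in NT and 1142 counts (95.3 FPKM) in IL-4. All 3 chains were thus abundant in both libraries and slightly higher in IL-4, and none was called.

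Their log2 ratios were 0.13 for C1qb (95% interval 0.05 to 0.20), 0.25 for C1qc (0.16 to 0.34) and 0.31 for C1qa (0.19 to 0.44). The length median was 0.18 for each of the 3, so the C1q ratios lay close to those of other short transcripts. With it subtracted, C1qa stayed at 0.13, C1qc at 0.06 and C1qb turned to -0.06, with an interval from -0.13 to 0.02 that includes 0. As to their proportions, C1qb made up 50.4% of the summed C1q FPKM in NT and 47.9% in IL-4, C1qc 33.5% and 34.6%, and C1qa 16.1% and 17.4%. C1qa exceeded C1qb in log2 ratio by 0.19, with an interval from 0.04 to 0.34, and differed from C1qc by 0.07, with an interval from -0.09 to 0.22 that includes 0. No word of 31 bases was shared between the transcripts of any pair of the 3 chains.

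C3 (chromosome 17, 57203967 to 57228136), the component on which all pathways converge, had 1691 counts (29.5 FPKM) in NT and 2346 counts (40.1 FPKM) in IL-4. Its log2 ratio was 0.44, with an interval from 0.35 to 0.54, and it was not called. The length median was -0.23, and with that subtracted the C3 ratio was 0.68, still under the threshold, although its interval of 0.59 to 0.77 reached it. C4b (chromosome 17, 34728139 to 34743902), the classical component C4, had 383.74 counts (6.33 FPKM) in NT and 293.7 counts (4.75 FPKM) in IL-4. Its log2 ratio was -0.41, with an interval from -0.64 to -0.19, and it was not called either. Its length median was -0.24, and the difference from it, -0.18, had an interval from -0.40 to 0.05 that includes 0.

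Between them, C3 exceeded C4b by 0.86 in log2 ratio, with an interval from 0.62 to 1.10. The separate value of C4b is uncertain, because 48.3% of the words of 31 bases in its transcripts also occur in C4a, a closely related neighbour. C4a was assigned only 5.26 and 3.3 counts, and the summed pair, with 389 counts in NT and 297 in IL-4, came to -0.42. Fibroblasts also make C3 and C4, and all 6 fibroblast markers had log2 ratios below 0, from -2.35 (Lum, 2 counts in NT and 0 in IL-4) to -0.08 (Dcn). With the length median subtracted, Col1a2 turned to 0.12, with an interval from -0.04 to 0.29 that includes 0. The other fibroblast markers stayed below 0, with Col1a1 at -0.07. None of the 6 was called, and their part in the values of C3 and C4b was not tested.

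**Figure D2:**
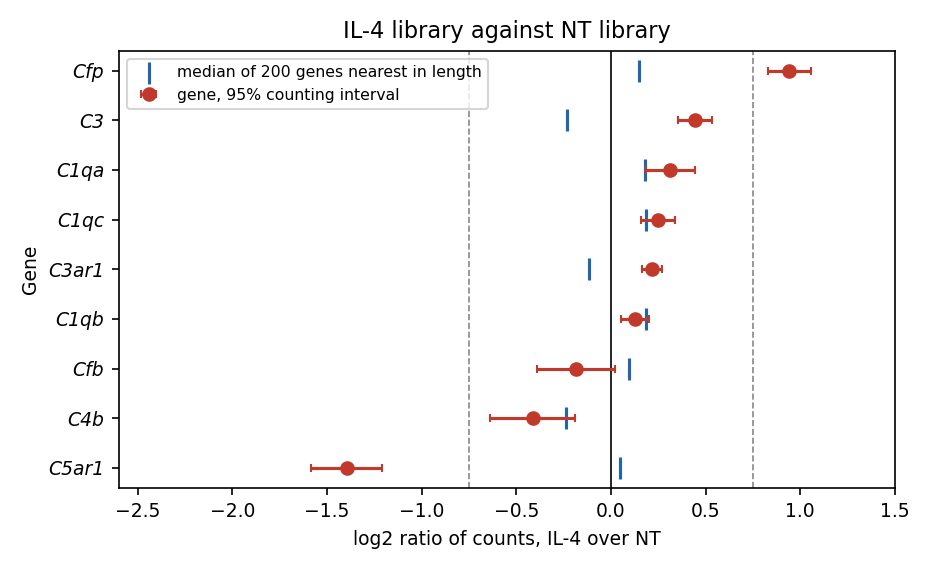
Log2 ratio of counts in IL-4 over NT for the 9 complement genes (red points) with the 95% interval of counting error, the length median (blue ticks) and the threshold of 0.75 (dashed lines). Cfp (0.94) and C5ar1 (-1.40) lie beyond the dashed lines, and the C1q chains lie close to their ticks.

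The only one of the 9 genes called higher belongs to the alternative pathway. Cfp (chromosome X, 20925454 to 20931555) encodes properdin, which stabilizes the alternative convertase. It had 978 counts (54.4 FPKM) in NT and 1918 counts (105 FPKM) in IL-4, and its rank by FPKM among listed genes moved from 1247 to 680. The log2 ratio of 0.94 had an interval from 0.83 to 1.06, so the call is lost at a threshold of 1. Of 8461 genes with at least 200 reads, 214 (2.53%) had a ratio as high. Its length median was 0.15, and the ratio was 0.80 with that subtracted, with an interval from 0.69 to 0.91 that includes the threshold.

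Cfb (chromosome 17, 34856374 to 34862514), the protease component of that convertase, was not called. It had 407 counts (13.3 FPKM) in NT and 365 counts (11.7 FPKM) in IL-4, a log2 ratio of -0.18 whose interval, from -0.39 to 0.02, includes 0. With its length median of 0.10 subtracted the ratio was -0.28, with an interval of -0.49 to -0.07. Cfp exceeded Cfb in log2 ratio by 1.13, with an interval from 0.89 to 1.37. In FPKM, Cfp was 4.10 times Cfb in NT and 8.97 times Cfb in IL-4.

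The anaphylatoxin receptors differed in their ratios. C3ar1 (chromosome 6, 122847140 to 122856157), the receptor of C3a, had 5478 counts (114 FPKM) in NT and 6493 counts (133 FPKM) in IL-4. Its log2 ratio was 0.22, with an interval from 0.17 to 0.27, and it was not called. With its length median of -0.12 subtracted the ratio was 0.34. C5ar1 (chromosome 7, 16246743 to 16259540), the signalling receptor of C5a, fell from 840 counts (30.1 FPKM) in NT to 325 counts (11.4 FPKM) in IL-4, or 38.0% of its scaled NT level. The log2 ratio of -1.40 had an interval from -1.59 to -1.21. Only 68 (0.80%) of the 8461 genes with at least 200 reads had a ratio as low, and its rank by FPKM moved from 2249 to 4935.

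The length median of C5ar1 was 0.05, and with that subtracted the ratio was -1.44. The calls of C5ar1 and Cfp are both lost if a biological coefficient of variation of 0.4 between samples is assumed, and both are kept at 0.2. C5ar1 minus C3ar1 came to -1.61 in log2 ratio, with an interval of -1.81 to -1.42. The level of C3ar1 was 3.79 times that of C5ar1 in NT and 11.6 times in IL-4, in FPKM. Summed over both receptors the level was 144.5 FPKM in NT and 144.3 FPKM in IL-4.

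Promoter windows of 300 bases, from 250 before to 50 after the transcript start, came from RefSeq (GRCm38.p6) and were found for 6 of the 9 genes. Those of C5ar1 and Cfp are shown because these were the called genes, and those of C1qb and C1qc because these neighbouring genes encode chains of 1 protein. They are written 5′ to 3′ on the strand of the gene, at chr7:16259289-16259588 (minus strand) for C5ar1, chrX:20931506-20931805 (minus strand) for Cfp, chr4:136886151-136886450 (minus strand) for C1qb and chr4:136892865-136893164 (minus strand) for C1qc. Capitals mark matches to the ETS sequence described after them.
C5ar1: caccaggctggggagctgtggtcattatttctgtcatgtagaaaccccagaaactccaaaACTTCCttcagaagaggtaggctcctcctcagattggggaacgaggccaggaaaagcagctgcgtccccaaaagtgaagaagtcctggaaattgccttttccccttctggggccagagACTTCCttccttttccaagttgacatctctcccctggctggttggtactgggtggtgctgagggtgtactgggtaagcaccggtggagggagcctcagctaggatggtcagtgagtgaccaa
Cfp: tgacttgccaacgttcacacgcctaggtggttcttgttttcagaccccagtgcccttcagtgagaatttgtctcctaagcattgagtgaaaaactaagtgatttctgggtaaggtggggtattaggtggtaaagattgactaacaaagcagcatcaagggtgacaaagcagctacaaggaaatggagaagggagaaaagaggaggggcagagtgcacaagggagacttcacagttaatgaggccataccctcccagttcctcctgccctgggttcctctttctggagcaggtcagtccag
C1qb: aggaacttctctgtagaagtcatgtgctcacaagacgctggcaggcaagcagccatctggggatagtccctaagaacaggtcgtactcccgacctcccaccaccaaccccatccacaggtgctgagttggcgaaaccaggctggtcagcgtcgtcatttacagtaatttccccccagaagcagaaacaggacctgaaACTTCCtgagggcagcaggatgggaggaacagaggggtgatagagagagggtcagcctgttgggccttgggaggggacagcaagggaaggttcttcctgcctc
C1qc: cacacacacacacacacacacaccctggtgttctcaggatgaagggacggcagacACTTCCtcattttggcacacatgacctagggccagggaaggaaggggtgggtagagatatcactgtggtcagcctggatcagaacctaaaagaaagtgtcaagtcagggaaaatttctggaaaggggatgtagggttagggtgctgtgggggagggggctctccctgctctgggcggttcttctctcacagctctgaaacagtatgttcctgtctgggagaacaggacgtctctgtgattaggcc

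These windows were searched on both strands for the Stat6 site TTCNNNNGAA and the shorter STAT site TTCNNNGAA. They were also searched on both strands for GGAAGT, which extends the GGAA core of ETS factors such as PU.1, the lineage factor of macrophages. Neither STAT form occurred in any of the 6 windows, against 6.95% and 8.30% of all 32851 windows. The sequence GGAAGT occurred 2 times in the C5ar1 window, 1 time in that of C1qb and 1 time in that of C1qc, in each case as its reverse complement. It was absent from the windows of Cfp, C3 and C3ar1, and 23.8% of all windows held it. The GGAA core on its own was not searched for, so this absence is of the longer sequence only. A match is a description of letters, and a window without a match leaves binding outside these 300 bases unaddressed.

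**Figure D3:**
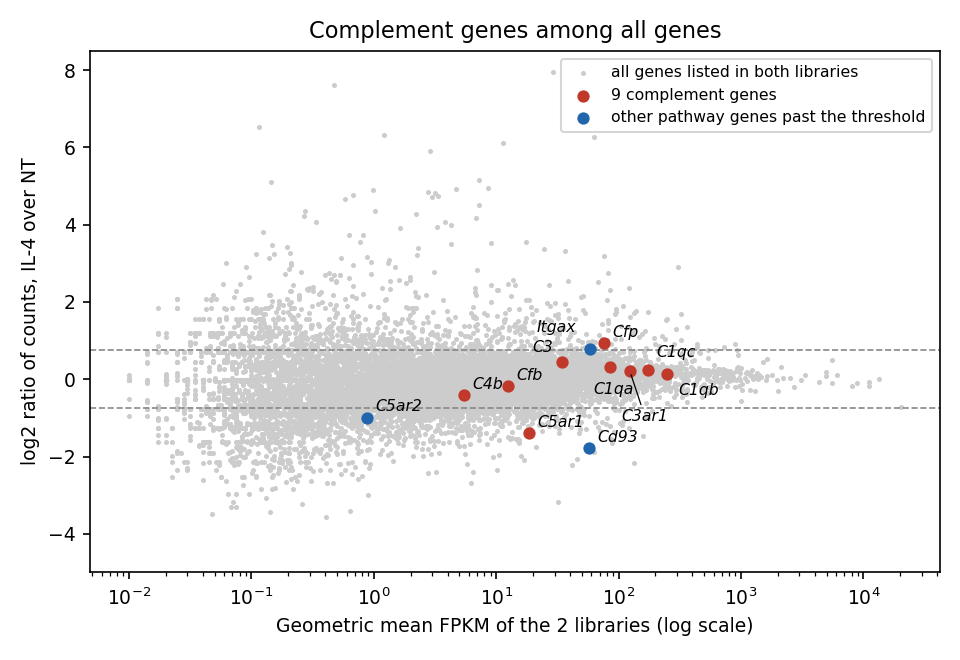
Log2 ratio of counts in IL-4 over NT against the geometric mean FPKM of the libraries (log axis) for all genes listed in both (grey), the 9 complement genes (red) and the other complement pathway genes called in either direction (blue), with the threshold of 0.75 dashed. Cfp and Itgax lie above the upper line, C5ar1, C5ar2 and Cd93 below the lower line, and the other 7 of the 9 genes between the lines.

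The rest of the pathway was followed through 48 other complement genes, of which 35 had reads. Of these 35, 1 was called higher and 2 lower, shares no larger than the 4.07% and 6.28% of all genes given above. The called genes were all receptors, but receptors were also 7 of the 20 genes with at least 20 reads. Calls of single genes say nothing of the receptors as a group. The 35 genes had a median log2 ratio of 0.10, but 15 of them had under 20 reads in all, a depth at which a change of this size could often not be shown. The 20 genes with more reads ran from -1.79 (Cd93) to 0.79 (Itgax).

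Among the receptors, Cd93 moved most. Cd93, a lectin-like membrane protein once described as a C1q receptor of phagocytes, fell from 7962 counts (107 FPKM) in NT to 2351 counts (31.1 FPKM) in IL-4. Its log2 ratio was -1.79, with an interval from -1.85 to -1.72, and 23 (0.27%) of the 8461 genes with at least 200 reads had a ratio as low. Its transcript is long, and with the length median of -0.33 subtracted the ratio was -1.46. C5ar2, the second receptor of C5a, fell from 49.23 counts (1.26 FPKM) to 24.93 counts (0.62 FPKM), a log2 ratio of -0.995 with a wide interval (-1.76 to -0.28). The difference between C5ar2 and C5ar1 in log2 ratio, 0.40, had an interval from -0.38 to 1.15 that includes 0. Both receptors of C5a were called lower, with C5ar1 holding nearly all of their summed 31.4 FPKM in NT and 12.0 FPKM in IL-4. A ratio as low as that of C5ar2 was common, in 1848 (11.9%) of the 15593 genes with reads.

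Complement receptors 3 and 4 share the beta chain Itgb2 and differ in their alpha chains, Itgam and Itgax. Itgax rose from 2003 counts (44.7 FPKM) to 3527 counts (77.2 FPKM), and its log2 ratio of 0.79 had an interval (0.71 to 0.87) that includes the threshold. The calls of C5ar2 and Itgax are lost at a threshold of 1 and with an assumed coefficient of variation of 0.2. Itgam had 3550 counts (68.0 FPKM) in NT and 3751 counts (70.5 FPKM) in IL-4, a log2 ratio of 0.05. Itgb2 was the most abundant gene of the pathway, with 811 FPKM in NT and 786 FPKM in IL-4, a log2 ratio of -0.045. Itgax exceeded Itgam in log2 ratio by 0.74, with an interval from 0.63 to 0.84, and its level went from 0.66 to 1.10 times that of Itgam in FPKM. With the length medians subtracted the 2 were closer, with Itgax at 0.86 and Itgam at 0.23. The interval of Itgam, from 0.16 to 0.30, then left out 0. C1qbp, a C1q-binding protein found mostly in mitochondria, had 42.8 and 58.2 FPKM and was not called (0.44). Vsig4, the complement receptor of resident macrophages, had 45 and 29 counts, and its interval of -1.39 to 0.04 includes 0. It was called lower only with the length median subtracted (-0.80).

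**Figure D4:**
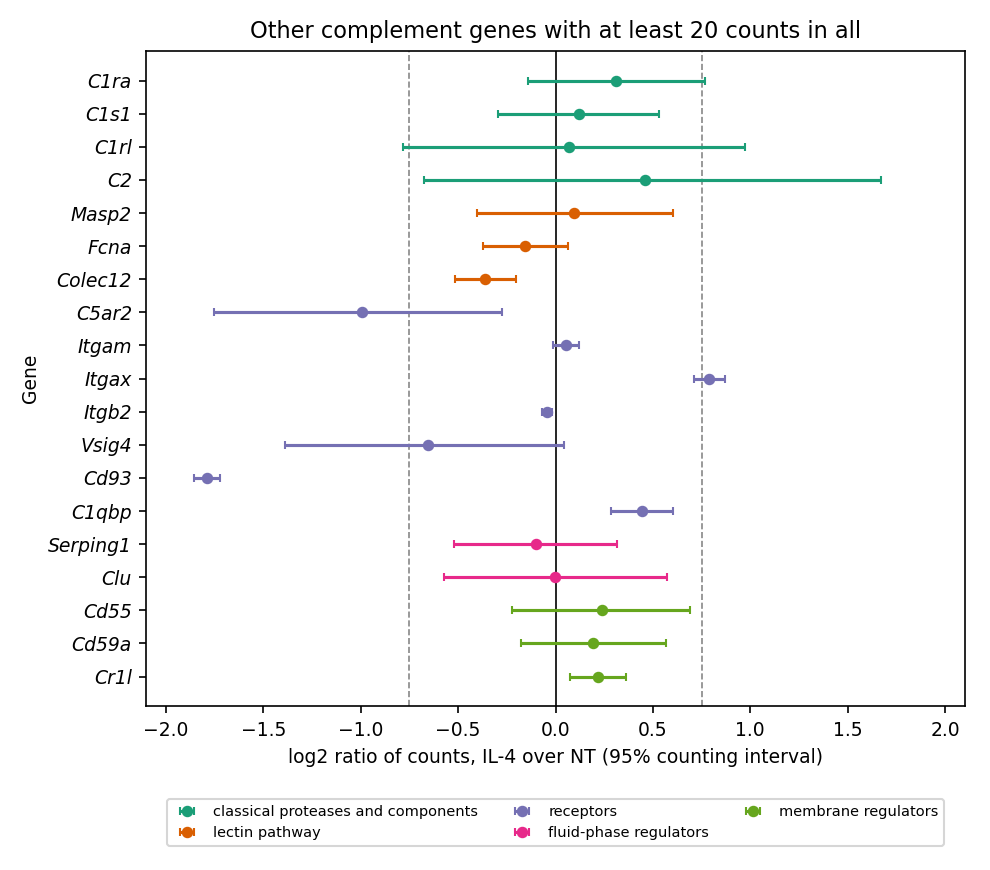
Log2 ratio of counts in IL-4 over NT, with the 95% interval of counting error, for other complement genes with at least 20 counts over the libraries, coloured by role, with the threshold of 0.75 dashed. Cd93 (-1.79), C5ar2 (-0.995) and Itgax (0.79) are the genes past the threshold, and the points of the proteases, lectins and regulators shown lie within it.

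No protease or lectin was called. C1s2, Masp1, Fcnb and Colec11 had ratios above 0.75, but each was at 0 counts in NT with at most 4 counts in IL-4, and their intervals include 0. C1ra and C1s1, the proteases that C1q activates, had 2.45 and 2.95 FPKM in NT and 3.04 and 3.23 FPKM in IL-4, far below the C1q chains. C1ra shares sequence with C1rb, which was not listed, and C1s1 with C1s2, so their separate values are uncertain. Summed, C1s1 and C1s2 had 96 counts in NT and 109 in IL-4. C2, which lies next to Cfb, had 12 and 17 counts. Of the lectin pathway, Fcna, a ficolin, had 25.4 and 22.8 FPKM with a log2 ratio of -0.16, and Colec12, a scavenger collectin, had 20.8 and 16.2 FPKM with a log2 ratio of -0.36. Masp2 was at 1.94 and 2.08 FPKM. Mbl1, Mbl2 and Colec10 were not listed, nor was Cfd, the protease that cleaves factor B.

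No gene of the terminal pathway reached 20 reads, and C7 and C8b were not listed. The largest was C8g, with 6 and 4 counts, and Hc, which encodes C5, had 1 count in NT and was not listed in IL-4. A gene absent from a table was taken as 0, and 3 counts correspond to 0.272 CPM (counts scaled to a common total) in NT and 0.267 CPM in IL-4, the floor set here, below which a gene is taken as not measured reliably.

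No regulator was called. Cd46, Cd55b and Susd4 had ratios above 0.75 on at most 5 counts in a library, with intervals that include 0. Cr1l, the mouse membrane regulator Crry, had 39.5 FPKM in NT and 45.9 FPKM in IL-4, a log2 ratio of 0.22. Serping1, the C1 inhibitor, had 4.99 and 4.65 FPKM. Cd55 had 2.71 and 3.19 FPKM, and Cd59a, summed with its relative Cd59b, had 120 and 137 counts. Cfi, C4bp, Vtn, Cpn1, Cpn2 and Csmd1 were not listed.

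Markers of other cells were read beside these values. Neutrophils carry C5ar1, and their only listed marker, S100a8, had 35 counts in NT and 21 in IL-4, a log2 ratio of -0.75 that was not called, since its interval includes 0. With its length median subtracted S100a8 was called lower, at -0.93 with an interval of -1.79 to -0.12. Siglecf, an eosinophil marker, was called lower (53 counts in NT and 27 in IL-4, a log2 ratio of -0.99). Of the other eosinophil markers, Il5ra had 18.77 and 15.23 counts (-0.32) and Prg2 had 0 and 1 (1.56). Neither was called, and Epx, Ear1 and Ear6 were at 0 in both. The part of such cells in the difference of C5ar1 was not tested. The 6 markers of resident large peritoneal macrophages, cells that carry Vsig4, summed to 4.42 FPKM in NT and 7.14 FPKM in IL-4. Of them, Selp was called higher and Cd209b had 1 count in NT and 0 in IL-4. Hepatocyte markers, for the main source of plasma complement, summed to 0.24 FPKM in NT and were at 0 in IL-4, with Alb, Apoa1, Ttr and Fgb at 0 in both. The lists for monocytes, mesothelial cells, B cells, T cells, eosinophils and mast cells each summed to between 1.14 and 6.57 FPKM in either library. Among them Ly6c2 (0 and 8 counts) and Lrrn4 (32 and 68 counts) were also called higher and Msln (12 and 2 counts) lower.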

How the data were processed

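Total RNA from 1 NT and 1 IL-4 library was sequenced on an Illumina HiSeq. The authors aligned reads with Bowtie to GRCm38/mm10, estimated gene abundance by RSEM (versions not given in the sources used here) and deposited expected counts, which are not scaled for depth. The FPKM values, scaled by the authors for transcript length and depth, were used for levels. Genes were matched by NCBI number to RefSeq symbols (15587 of 15623), and a gene absent from a table was set to 0.

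Log2 ratios (IL-4 over NT) used counts scaled to the library total with 0.5 added, over all 15593 genes with reads after rounding. For each gene, the share of reads in IL-4 was given an exact (Clopper-Pearson) 95% interval, converted to log2, and intervals of differences between genes are exact conditional intervals. They cover counting error only, as PCR copies cannot be told from separate molecules here. Calls needed a ratio of at least 0.75 in size and an interval without 0. The length median came from the 200 nearest genes with at least 200 reads. Alternatives were other scalings, constants and filters, and the edgeR exact test (edgeR 4.0.16, R 4.3.3) with an assumed biological coefficient of variation and unadjusted p of at most 0.05.

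All 9 members were named, and other complement genes if called or at 10 FPKM or more in a library, or sharing sequence with a related gene. C1s2, Masp1, Fcnb, Colec11, Cd46, Cd55b, Susd4, C2, Masp2, C8g, Hc, Serping1, Cd55, Vsig4 and single markers were named after their values were seen. The members and lists were chosen with earlier results of these data known. Python 3.11.15, scipy 1.17.1 and pandas 2.3.3 were used. The values of 1 pathway gene are not reported here, though it is among the genes counted.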

Additional observations from a re-analysis of the deposited data

How the results depend on the processing

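No paired analysis was possible because NT and IL-4 have 1 library each, and no replicate could be left out. Under the 3 other scalings, 5 counts added, a minimum of 20 counts, a fold change over 1.5 and FPKM with 0.1 added, the calls of the 9 genes and of the other pathway genes did not change in number. Requiring a log2 ratio of at least 1 left 0 of the 9 genes higher (Cfp was lost) and C5ar1 lower, and of the other pathway genes 0 higher and 1 lower (Cd93), with 474 genes higher and 580 lower overall against 635 and 979. With a coefficient of variation of 0.2, edgeR's exact test kept Cfp and C5ar1 but left 0 other pathway genes higher and 1 lower, with 479 and 624 overall. With 0.4, it left 0 of the 9 genes higher, 0 lower, and 0 and 1 of the others, with 205 and 88 overall. FPKM with 1 added left 1 other pathway gene lower, without C5ar2, and 391 and 399 overall. The ratio alone, with no interval, gave 10 other pathway genes higher and 4 lower, the added ones all on under 20 reads, and 1693 and 2598 overall. Subtracting the length trend took the median of the 9 genes from 0.22 to 0.062 and added Vsig4 to the genes called lower. Of the 9 genes, Cd93, Itgax and C5ar2, only C1qb changed sign under these settings. Its log2 ratio went from 0.13 to -0.06 with the length trend subtracted, and it was called in neither case. Depth limits the genes with few reads, C5ar2 and Vsig4 among them. Across scalings the median of all genes moved by at most 0.037.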
